A study of Mus musculus with 38 samples.

Results

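The response of small intestinal villi to 1,25(OH)2D3 (calcitriol, the hormonal form of vitamin D) was measured by RNA-seq 4 h after a single injection. All villus libraries of the series were used, 13 of the 38 libraries, and all genes of the villus table with a level of 1 FPKM or more (fragments per kilobase of transcript and per 1 M fragments) in at least 6 of them, 9706 of 21441 genes. The vitamin D group had 7 libraries of villi from wild type, vitamin D deficient C57BL6/J mice injected intraperitoneally with 1,25(OH)2D3 at 10 ng per g of body weight. The vehicle group had 6 libraries of villi from wild type C57BL6/J mice that were also vitamin D deficient and received 0.1 ml of propylene glycol and ethanol mixed 9 to 1. Both groups were thus deficient at the time of injection, and no replete animals enter the comparison. The mice were 12 to 14 weeks old per the treatment protocol and 10 to 13.3 weeks old per the age label. Villi came from the proximal small intestine, were loosened in 3 mM EDTA and were parted from crypts on a 70 µm filter. How many mice make up a library is not stated in the labels, so that p-values measure the spread between these samples, which may in part be technical.

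In the intestine, calcitriol binds the vitamin D receptor, a ligand-activated transcription factor that pairs with a retinoid X receptor and binds paired half-sites in DNA. Its known task in the villus enterocyte is to raise the uptake of dietary calcium, through an apical entry channel, a cytosolic calcium carrier and a basolateral pump. The receptor also acts on genes of metal transport, detoxification, lipid handling and cell adhesion, and it limits its own signal by inducing the hydroxylase that degrades the hormone.

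The libraries held 14.2 M to 17.2 M reads each, as recovered from the steps between low values. Summed over 18 markers, absorptive enterocyte RNA stood at 58100 to 82100 FPKM in vitamin D villi and 53100 to 79000 FPKM in vehicle villi, against 11400 to 71600 FPKM in the crypt libraries of both treatments, whose table was normalised separately. Markers of fibroblasts, muscle and endothelium summed to 6.11 to 11.4 FPKM in vitamin D villi and 7.02 to 10.1 FPKM in vehicle villi, and red cell markers stayed under 1 FPKM in sum. Paneth cell markers, which belong to crypts, summed to 156 to 1130 FPKM in vitamin D villi and 97.3 to 3410 FPKM in vehicle villi. Males and females are pooled per the labels, but Xist and Ddx3y showed the female pattern in 4 vitamin D and 3 vehicle libraries and the male pattern in the other 3 of each group. In these bulk samples, fewer cells of a type and less RNA per cell cannot be told apart.

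Villi answered the hormone mainly with rises. Of the 9706 genes tested, limma called 240 at an adjusted p under 0.05 (2.47%), 211 higher (2.17%) and 29 lower (0.299%) after vitamin D. A further measure that uses no model gave the same direction: for 170 genes (1.75%) all 7 vitamin D libraries exceeded all 6 vehicle libraries, and for 16 genes (0.165%) all 7 were under all 6. The median log2 fold change over all genes tested was -0.01. At an unadjusted p under 0.05 there were 1181 genes (12.2%). With the replicate number of the titles as a block, 288 genes were higher and 53 lower, of which 210 were among the 240. Within replicates 1 to 4 of each group alone, here called the plain-named libraries, 93 were higher and 4 lower. The other villus libraries have a number in front of their column name, except vitamin D replicate 6, which is outside this set too.

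Most of the response consisted of moderate changes. Only 6 of the 211 risen genes had a log2 fold change of 2 or more, 56 lay between 1 and 2, 109 between 0.5 and 1, and 40 under 0.5. The quartiles of the risen genes were 0.55, 0.81 and 1.05 on the log2 scale, and those of the fallen genes -0.77, -0.59 and -0.45. Among the 40 genes that rose by less than 0.5, 26 had no overlap between the groups. Over all genes tested, 1.75% had all vitamin D libraries above all vehicle libraries. The 40 were called with the same libraries, and a call at so small a change favours separate groups. Calls were also spread over the range of levels: 1.15% of genes with a mean under 2 FPKM rose, 1.63% between 2 and 10, 2.55% between 10 and 50, 3.58% between 50 and 250 and 2.89% above 250. No fallen gene had a mean under 2 or above 250 FPKM.

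Together the 211 risen genes took 3.50% ± 0.34 of all FPKM in vitamin D villi and 1.56% ± 0.15 in vehicle villi (SD, n = 7 and 6), sums over genes chosen for their rise. Without Cyp24a1 the shares were 2.91% ± 0.23 and 1.56% ± 0.15 in that order of groups, so that the remaining 210 genes carried most of the added RNA. The 29 fallen genes took 0.126% ± 0.010 in vitamin D villi and 0.189% ± 0.009 in vehicle villi. Each vitamin D library lay above all vehicle libraries for 184 (replicate 7) to 210 (replicate 2) of the 211 risen genes. These genes were called with the same libraries, so that high counts follow largely from the choice. The plot of fold change against p shows the shape of the response.

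**Figure D1:**
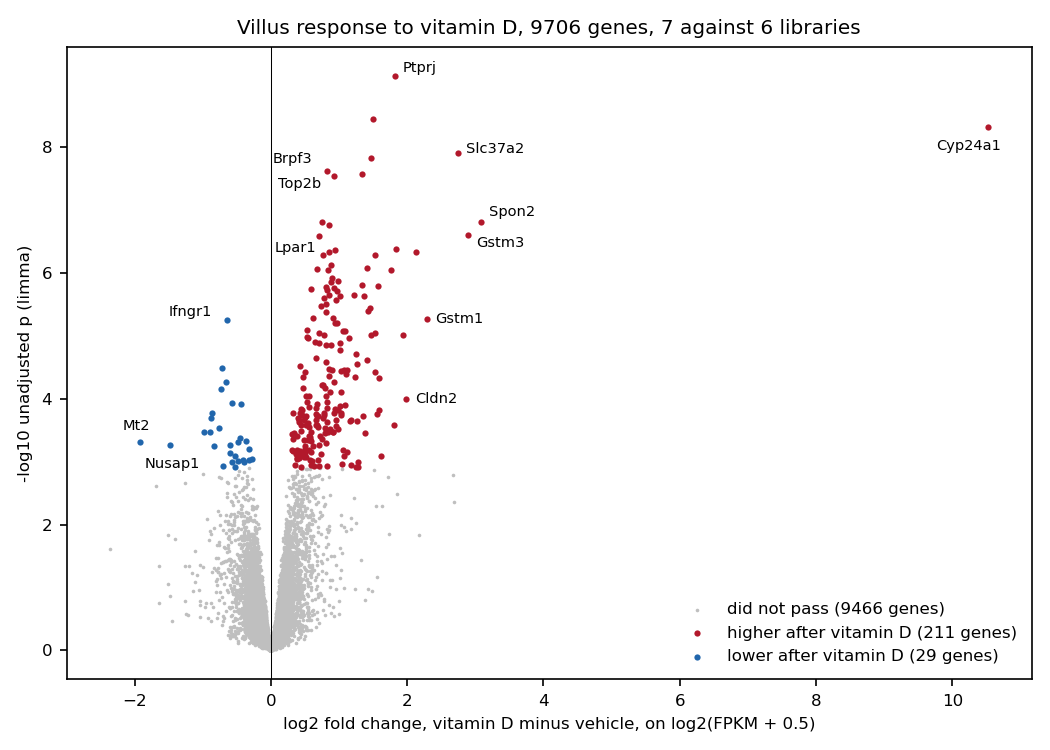
Each point is 1 of the 9706 genes tested, with its log2 fold change (vitamin D minus vehicle, on log2(FPKM + 0.5)) on the x axis and the -log10 of its unadjusted limma p on the y axis. The 211 genes higher after vitamin D (red) outnumber the 29 lower (blue), and most of both lie within 1 log2 unit of 0.

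Of the hormone's own machinery, 1 of 14 genes tested was called (7.14%, against 2.47% of all genes tested). With the replicate block 2 rose, Cyp24a1 and Cyp3a11. Cyp24a1, the hydroxylase that degrades calcitriol, stood at 1898 to 4651 FPKM (median 3493) in vitamin D villi and at 0.0548 to 62.2 FPKM (median 0.977) in vehicle villi, where replicate 6 was the highest. The groups did not overlap (10.53 ± 0.83, adjusted p = 1.53e-05, with all fold changes here as log2 values ± SE). Without vehicle replicate 6 the log2 fold change was 11.49. Vdr, the receptor itself, stood at 123 to 214 FPKM (median 156) in vitamin D villi and at 99.5 to 174 FPKM (median 143) in vehicle villi, ranges that overlapped widely (0.22 ± 0.17, adjusted p = 0.675).

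Genes of calcium absorption and calcium stores were called in 4 of 17 cases (23.5%, against 2.47% of all genes tested), all higher, and the 17 had a median log2 fold change of 0.21, against -0.01 over all genes tested. Atp2b1, the basolateral pump that moves calcium into the blood, stood at 88.6 to 147 FPKM (median 104) in vitamin D villi and 39.7 to 48.1 FPKM (median 41.9) in vehicle villi. The 6 vehicle values were close together and every vitamin D library lay far above them (1.33 ± 0.12, adjusted p = 3.43e-05). S100g, the cytosolic calcium carrier calbindin-D9k, stood at 1118 to 2497 FPKM (median 1712) in vitamin D villi and 317 to 1004 FPKM (median 733) in vehicle villi. The groups did not overlap (1.36 ± 0.27, adjusted p = 0.0141), but with a block for the replicate number its adjusted p was 0.0726. Trpv6, the apical calcium channel, lay low, at 0.206 to 3.79 FPKM (median 1.87) in vitamin D villi and 0.227 to 1.64 FPKM (median 0.327) in vehicle villi. Of its 7 vitamin D libraries 5 exceeded the vehicle range and 1 was under it, and it did not pass (1.08 ± 0.37, adjusted p = 0.2), nor with the replicate block from the titles (adjusted p = 0.357) or in the authors' deposited table (adjusted p = 0.0916). It passed with the pairs of the column names as a block (adjusted p = 0.0065), in the plain-named libraries alone (adjusted p = 0.042) and without vitamin D replicate 6 (adjusted p = 0.0259).

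The other 2 called members act outside this transcellular route. Orai1, the pore of the store-operated calcium channel in the plasma membrane, stood at 39.4 to 78.0 FPKM (median 50.7) in vitamin D villi and 13.9 to 27.96 FPKM (median 18.3) in vehicle villi. Its groups did not overlap (1.42 ± 0.20, adjusted p = 0.000892). Cldn2, a claudin that forms a cation pore between cells, stood at 30.5 to 165 FPKM (median 64.9) in vitamin D villi and 11.1 to 33.1 FPKM (median 16.9) in vehicle villi. The lowest vitamin D library fell within the vehicle range and the other 6 lay above it (1.99 ± 0.37, adjusted p = 0.00982). None of 24 genes of tight and adherens junctions was called with limma, a list that does not hold Cldn2 and had a median of 0.01. Cdh17, the liver-intestine cadherin of that list, did not pass (0.33 ± 0.12, adjusted p = 0.21), but did with the replicate block (adjusted p = 0.04).

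Genes that handle manganese, zinc, copper and iron changed in both directions, with 4 of 29 higher and 2 lower (20.7% called, against 2.47% of all genes). With the replicate block 5 were higher and 3 lower. Slc30a10, the manganese exporter, stood at 88.4 to 134 FPKM (median 111) in vitamin D villi and 25.8 to 60.03 FPKM (median 34.4) in vehicle villi, without overlap (1.53 ± 0.18, adjusted p = 0.000268). Slc30a1, which exports zinc across the plasma membrane, stood at 13.1 to 30.5 FPKM (median 19.2) in vitamin D villi and 6.00 to 8.70 FPKM (median 6.94) in vehicle villi. Its groups were also apart (1.37 ± 0.18, adjusted p = 0.000589). Slc39a8, an importer of zinc, manganese and cadmium, stood at 3.53 to 8.33 FPKM (median 4.94) in vitamin D villi and 1.81 to 2.83 FPKM (median 2.42) in vehicle villi (1.11 ± 0.19, adjusted p = 0.00431). The change of Slc30a5, which loads zinc into the secretory pathway, was small but cleanly separated, at 61.1 to 76.4 FPKM (median 68.0) in vitamin D villi and 45.8 to 56.2 FPKM (median 50.7) in vehicle villi (0.43 ± 0.07, adjusted p = 0.00401).

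The 2 fallen members of that list bind or import metals. Mt2, a metallothionein that binds zinc and copper, stood at 5.42 to 41.6 FPKM (median 19.0) in vitamin D villi and 40.1 to 147 FPKM (median 73.4) in vehicle villi. Of the 7 vitamin D libraries 6 lay below all vehicle libraries (-1.93 ± 0.43, adjusted p = 0.0263). The call of Mt2 was lost without any 1 of vitamin D replicates 4 and 6 and vehicle replicates 1, 2 and 5, with an adjusted p of up to 0.0626 (without vehicle replicate 1), and passed with the replicate block at 0.00126. Slc11a2, the apical iron importer, picked once its values were known, stood at 22.3 to 34.5 FPKM (median 27.5) in vitamin D villi and 36.6 to 83.4 FPKM (median 40.2) in vehicle villi. The groups did not overlap (-0.70 ± 0.17, adjusted p = 0.0483), but the call was lost without any 1 of 9 of the 13 libraries, with an adjusted p of up to 0.0977 (without vehicle replicate 3).

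Of 13 genes of phosphate and magnesium transport, 2 rose (15.4%, against 2.47% of all genes tested), and 4 did with the replicate block. Cnnm2, a magnesium-transport protein of the basolateral membrane in kidney, stood at 8.29 to 17.1 FPKM (median 11.7) in vitamin D villi and 3.70 to 6.80 FPKM (median 4.77) in vehicle villi. The groups were apart (1.15 ± 0.17, adjusted p = 0.00169). Slc41a2, a magnesium carrier, had the smallest fold change of the called genes named here, at 23.1 to 28.6 FPKM (median 26.7) in vitamin D villi and 19.5 to 21.5 FPKM (median 21.1) in vehicle villi (0.32 ± 0.06, adjusted p = 0.0136), and its groups still did not overlap. Slc34a2, the sodium-phosphate cotransporter of the brush border, picked once its values were known, stood at 7.71 to 57.3 FPKM (median 25.8) in vitamin D villi and 0.447 to 22.2 FPKM (median 2.78) in vehicle villi. Its ranges overlapped and it did not pass (2.67 ± 0.69, adjusted p = 0.0611), but did with the replicate block (adjusted p = 0.0228) and without vehicle replicate 5 (adjusted p = 0.0149) or vitamin D replicate 1 (adjusted p = 0.0446). Alpi, the alkaline phosphatase of the brush border, also chosen after its values were seen, was at 2641 to 4053 FPKM (median 2797) in vitamin D villi and 1949 to 2480.3 FPKM (median 2361) in vehicle villi. Its groups were apart, and its adjusted p was 0.0415 with the block and 0.0926 without it.

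Among 188 solute carriers tested (symbols beginning Slc), 12 rose and 1 fell (6.91% called, against 2.47% of all genes), with a median log2 fold change of 0.01. Slc37a2, an endoplasmic reticulum exchanger of sugar phosphates, ranged from 63.6 to 114 FPKM in vitamin D villi and 8.49 to 23.8 FPKM in vehicle villi, with means of 97.3 ± 17.1 FPKM in vitamin D villi and 15.0 ± 6.87 FPKM in vehicle villi (SD, n = 7 and 6) and the largest fold change of the solute carriers named here (2.75 ± 0.23, adjusted p = 2.91e-05). Slc36a1, which takes up small amino acids with protons, stood at 83.6 to 98.5 FPKM (median 94.8) in vitamin D villi and 37.3 to 59.2 FPKM (median 53.5) in vehicle villi. The vitamin D values were tight and all above the vehicle values (0.84 ± 0.10, adjusted p = 0.000367). Slc36a1 was the 1 called gene of 27 of sugar, peptide and amino acid absorption (3.7%, near the 2.47% of all genes). Slc35f2, a transporter of the nucleotide sugar carrier family, stood at 68.3 to 129 FPKM (median 91.2) in vitamin D villi and 38.1 to 49.5 FPKM (median 45.1) in vehicle villi (1.02 ± 0.13, adjusted p = 0.000589). Slc43a2, a neutral amino acid carrier, stood at 172 to 256 FPKM (median 199.7) in vitamin D villi and 91.5 to 175 FPKM (median 127) in vehicle villi. It rose (0.72 ± 0.16, adjusted p = 0.0222) in 6 of 7 vitamin D libraries past the vehicle range, and its call was lost without vehicle replicate 5, vehicle replicate 6 or vitamin D replicate 2 (adjusted p up to 0.0549). Slc35f2 and Slc43a2 were chosen after their values were seen. Abcb10, an ABC transporter of the mitochondrial inner membrane, was 1 of 2 ABC transporters that rose among 25 (8.0%, against 2.47% of all genes). It stood at 23.9 to 37.4 FPKM (median 28.4) in vitamin D villi and 15.4 to 20.2 FPKM (median 16.8) in vehicle villi (0.80 ± 0.11, adjusted p = 0.000908).

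**Figure D2:**
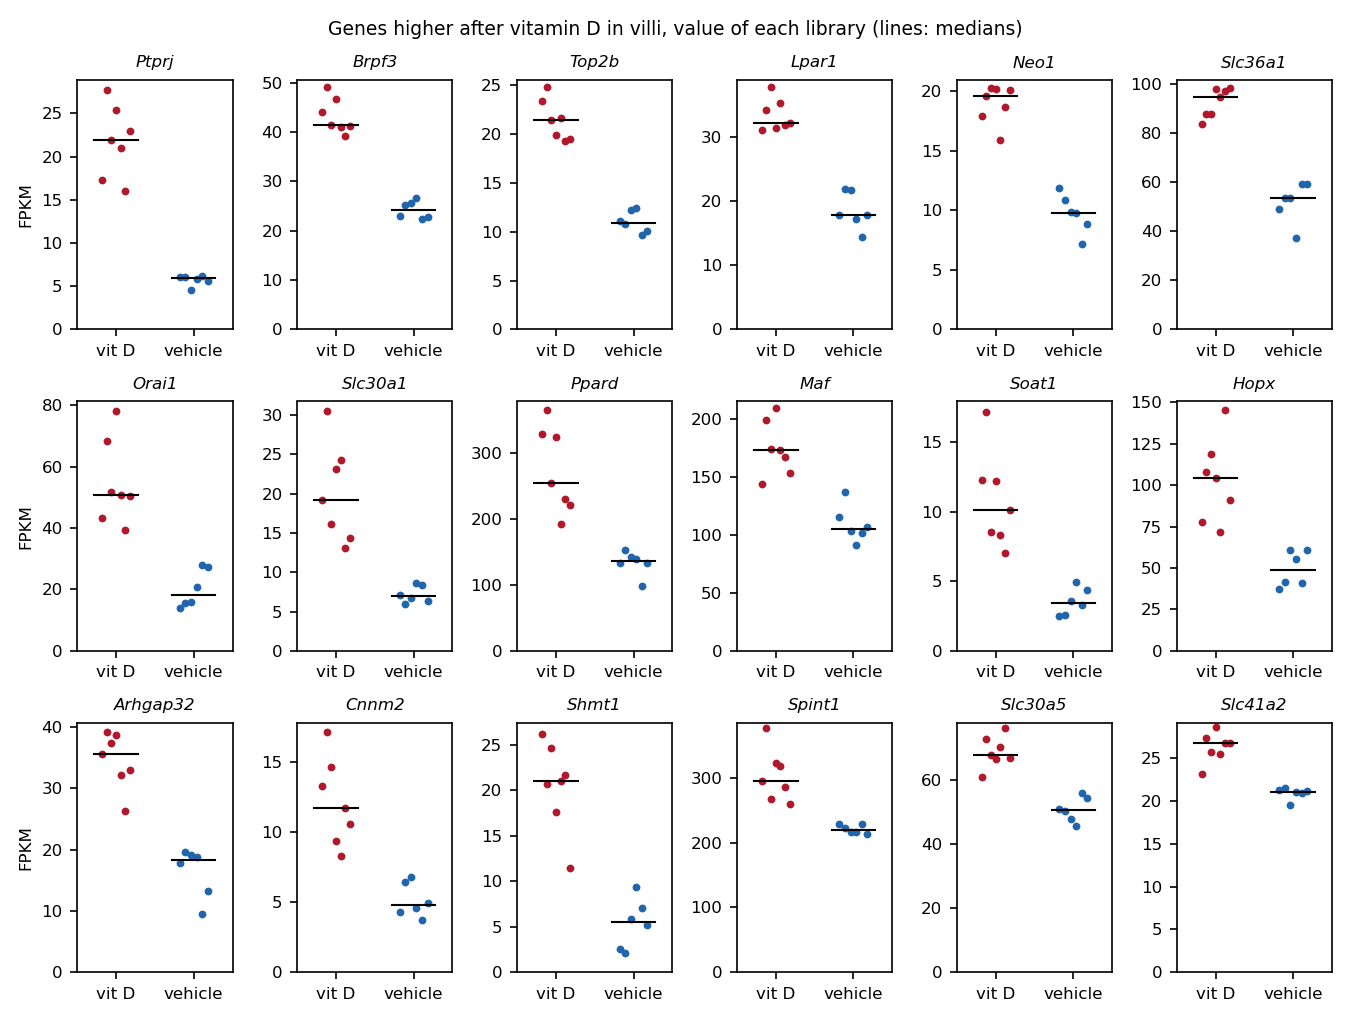
FPKM of 18 risen genes in each villus library, with the 7 vitamin D libraries (red) left of the 6 vehicle libraries (blue) and a black line at each group's median; every y axis starts at 0. In each of the 18 panels all vitamin D points lie above all vehicle points, from Ptprj at the top left to the narrow but complete separation of Slc41a2 at the bottom right.

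Of 26 genes of fat absorption and chylomicron assembly 2 rose (7.69%, against 2.47% of all genes tested), Npc1l1 and Agpat2, with a list median of 0.03. Of 27 genes of fatty acid oxidation and PPAR targets 1 rose, a share of 3.7% near that of all genes, with a median of -0.02. With the replicate block 2 genes of that list rose. Npc1l1, the importer of dietary cholesterol at the brush border, stood at 485 to 589 FPKM (median 528) in vitamin D villi and 290.4 to 446 FPKM (median 346) in vehicle villi. The groups did not overlap (0.56 ± 0.11, adjusted p = 0.012). Agpat2, an acyltransferase that makes phosphatidic acid, had a smaller change (0.45 ± 0.10, adjusted p = 0.0352), and its call was lost without any 1 of 10 of the 13 libraries (adjusted p up to 0.0818). Soat1, which esterifies cholesterol in the endoplasmic reticulum, stood at 7.04 to 17.2 FPKM (median 10.1) in vitamin D villi and 2.50 to 4.98 FPKM (median 3.45) in vehicle villi (1.46 ± 0.20, adjusted p = 0.00081). Stard5, a sterol-binding protein, stood at 5.56 to 12.7 FPKM (median 8.08) in vitamin D villi and 1.82 to 6.23 FPKM (median 3.79) in vehicle villi. Its ranges touched, with 6 of 7 vitamin D libraries above the vehicle range (1.18 ± 0.24, adjusted p = 0.0154).

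Ppard, a nuclear receptor for fatty acids, stood at 193 to 365 FPKM (median 254) in vitamin D villi and 97.8 to 153 FPKM (median 136) in vehicle villi. Every vitamin D library lay above the vehicle range (1.01 ± 0.15, adjusted p = 0.00194). Agpat1, a relative of Agpat2 with the same reaction, stood at 159.9 to 271 FPKM (median 203) in vitamin D villi and 137 to 158 FPKM (median 142) in vehicle villi (0.55 ± 0.12, adjusted p = 0.0182). Idh1, a cytosolic source of NADPH, stood at 201 to 375 FPKM (median 347) in vitamin D villi and 111 to 195 FPKM (median 162) in vehicle villi, and Pdp2, a phosphatase that switches on pyruvate dehydrogenase, at 11.2 to 31.4 FPKM (median 16.0) and 3.22 to 7.57 FPKM (median 6.38) in the same order of groups. Both were without overlap (0.93 ± 0.18, adjusted p = 0.0136 for Idh1 and 1.53 ± 0.23, adjusted p = 0.00157 for Pdp2). Soat1, Stard5, Agpat1, Idh1 and Pdp2 were chosen after their values were seen.

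Detoxification genes moved at a few points as well. Of 32 glutathione and antioxidant genes 3 rose (9.38%, against 2.47% of all genes), all of them glutathione transferases, which attach glutathione to reactive compounds; the list median was -0.04, and 6 rose with the replicate block. Gstm3 stood at 672 to 2600.5 FPKM (median 1387) in vitamin D villi and 114 to 296 FPKM (median 201) in vehicle villi, and every vitamin D library lay above every vehicle library (2.90 ± 0.31, adjusted p = 0.000195). Gstm1 stood at 184 to 614 FPKM (median 357) in vitamin D villi and 42.1 to 108 FPKM (median 80.1) in vehicle villi (2.29 ± 0.32, adjusted p = 0.0011). Gstp1 stood at 858 to 1449.6 FPKM (median 1393) in vitamin D villi and 604 to 1025 FPKM (median 725) in vehicle villi. The lowest vitamin D library, replicate 7, fell within the vehicle range (0.76 ± 0.15, adjusted p = 0.0147). Genes of the Gstm family are near-identical in part, so how reads were shared among Gstm1, Gstm3 and their copies is uncertain. Ephx1, the microsomal epoxide hydrolase, stood at 18.1 to 51.6 FPKM (median 33.8) in vitamin D villi and 5.35 to 21.7 FPKM (median 8.98) in vehicle villi, with 6 of 7 vitamin D libraries above the vehicle range (1.58 ± 0.31, adjusted p = 0.0128).

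The list of cytochrome P450 enzymes and their receptors leaves out the vitamin D hydroxylases and holds some genes that are neither. None of its 23 genes was called with limma, with 3 at an unadjusted p under 0.05. With the replicate block 3 rose: Cyp2b10, and Por and Cyb5, which are not P450 enzymes. Cyp2b10, a drug-metabolising enzyme, stood at 253 to 940.2 FPKM (median 629) in vitamin D villi and 32.0 to 376 FPKM (median 197) in vehicle villi. The ranges overlapped (1.86 ± 0.52, adjusted p = 0.0941), and it passed with the replicate block (adjusted p = 0.0143). Cyp3a11, another drug-metabolising enzyme but listed with the hormone's own machinery, was picked once its values were known. It stood at 521 to 1836 FPKM (median 1214) in vitamin D villi and 219.8 to 1233 FPKM (median 483) in vehicle villi. It did not pass (1.25 ± 0.42, adjusted p = 0.184), but did with the replicate block (adjusted p = 0.027). Slco2b1, an uptake carrier of organic anions, was the 1 called gene of 27 conjugation enzymes and transporters (3.7%, near the 2.47% of all genes). It fell, at 3.04 to 6.47 FPKM (median 4.84) in vitamin D villi and 6.48 to 10.96 FPKM (median 7.70) in vehicle villi (-0.76 ± 0.16, adjusted p = 0.0184). The groups of Slco2b1 met without overlapping, and its adjusted p was 0.0503 without vehicle replicate 6 and 0.051 with the block. With the block 1 gene of that list rose and 0 fell. Bach1, a heme-sensing repressor of antioxidant genes, stood at 48.8 to 66.5 FPKM (median 53.9) in vitamin D villi and 21.0 to 41.9 FPKM (median 26.9) in vehicle villi (0.89 ± 0.15, adjusted p = 0.00431). Oxr1, a gene of oxidation resistance, stood at 12.2 to 27.7 FPKM (median 17.3) in vitamin D villi and 3.63 to 7.11 FPKM (median 6.17) in vehicle villi (1.58 ± 0.20, adjusted p = 0.000533). Both were chosen after their values were seen, and neither had any overlap between groups.

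Retinoid genes, 17 in number, had 1 rise and 2 falls (17.6% called, against 2.47% of all genes). With the replicate block 2 rose and 2 fell. Dhrs9, a dehydrogenase that oxidises retinol, stood low, at 0.893 to 2.41 FPKM (median 1.14) in vitamin D villi and 0.236 to 0.606 FPKM (median 0.479) in vehicle villi, without overlap (1.09 ± 0.21, adjusted p = 0.0116). Lrat, which esterifies retinol for storage or transport, stood at 3.18 to 5.74 FPKM (median 4.13) in vitamin D villi and 5.46 to 7.19 FPKM (median 6.84) in vehicle villi. It fell (-0.59 ± 0.13, adjusted p = 0.0283), a call lost without any 1 of 9 of the 13 libraries with an adjusted p of up to 0.0653 (without vehicle replicate 1). Adh4, an alcohol dehydrogenase active on retinol, stood at 5.97 to 13.5 FPKM (median 10.6) in vitamin D villi and 11.7 to 26.0 FPKM (median 20.1) in vehicle villi. It fell as well (-0.98 ± 0.21, adjusted p = 0.0201), and its adjusted p was 0.0516 without vehicle replicate 5. Shmt1, the cytosolic serine hydroxymethyltransferase of one-carbon metabolism, was the 1 called gene of 17 in its list (5.88%, against 2.47% of all genes). Shmt1 stood at 11.5 to 26.2 FPKM (median 21.0) in vitamin D villi and 2.14 to 9.41 FPKM (median 5.49) in vehicle villi (1.94 ± 0.29, adjusted p = 0.00162). All its vitamin D libraries lay above the vehicle range.

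**Figure D3:**
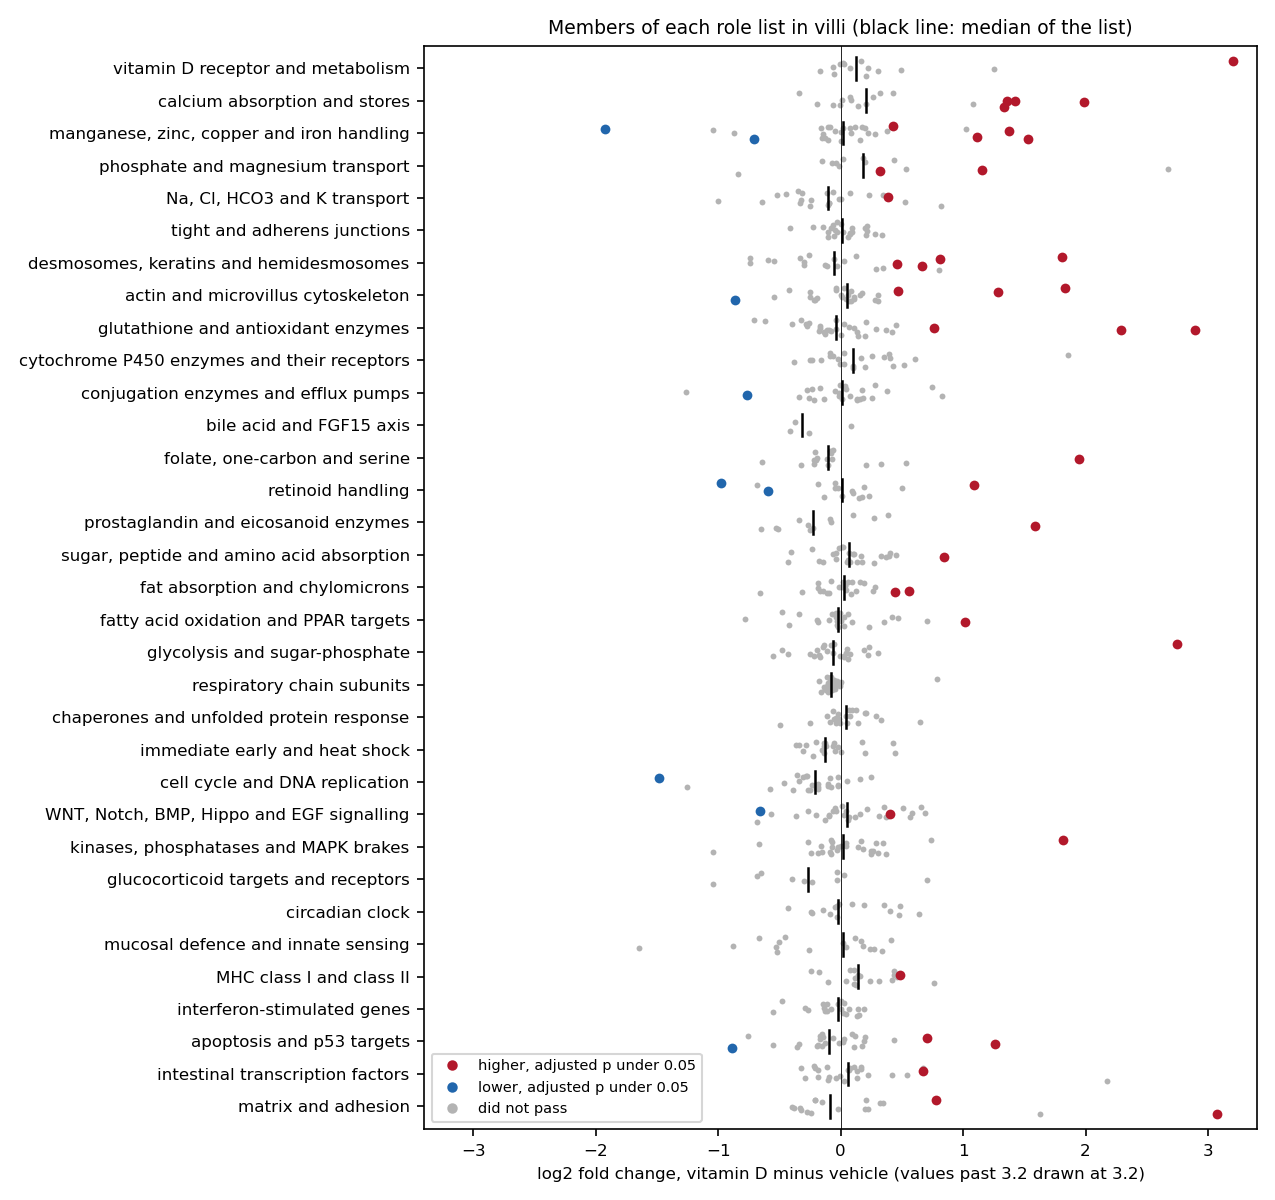
Each row is 1 role list and each point 1 tested member, with its log2 fold change (vitamin D minus vehicle) on the x axis; red points rose, blue points fell and grey points did not pass, and black lines give the list medians. Called members are few in each row and the medians stay near 0, with 4 risen points in the calcium row. Cyp24a1 in the top row is drawn at 3.2.

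Some adhesion and cytoskeleton genes changed too. Of 21 genes of desmosomes, keratins and hemidesmosomes 4 rose and 0 fell (19.0% called, against 2.47% of all genes), but the list median was -0.05 and 6 members were lower at an unadjusted p under 0.05. With the replicate block 3 rose and 2 fell. Pkp1, a plakophilin of the desmosomal plaque, stood at 1.74 to 4.91 FPKM (median 4.23) in vitamin D villi and 0.0437 to 2.64 FPKM (median 0.73) in vehicle villi, with 5 of 7 vitamin D libraries above the vehicle range (1.80 ± 0.37, adjusted p = 0.017). Pkp4, a relative found at adherens junctions and desmosomes, stood at 15.6 to 20.2 FPKM (median 19.0) in vitamin D villi and 11.2 to 15.5 FPKM (median 13.4) in vehicle villi. The lowest vitamin D library, replicate 7, lay just above the highest vehicle library (0.46 ± 0.09, adjusted p = 0.0128). Krt7, a keratin of simple epithelia, stood at 27.1 to 46.1 FPKM (median 40.6) in vitamin D villi and 16.7 to 25.1 FPKM (median 21.4) in vehicle villi (0.81 ± 0.15, adjusted p = 0.00891). Ppl, the cytolinker periplakin, was at low FPKM, 1.78 to 2.80 FPKM (median 2.12) in vitamin D villi and 0.891 to 1.60 FPKM (median 1.204) in vehicle villi. The groups of Krt7 and Ppl did not overlap, and the adjusted p of Ppl was 0.0154, or 0.0611 with the block.

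Of 28 actin and microvillus genes 3 rose and 1 fell (14.3% called, against 2.47% of all genes). Pdlim2, a PDZ and LIM domain protein bound to actin, stood at 71.9 to 193 FPKM (median 128) in vitamin D villi and 24.1 to 41.4 FPKM (median 32.1) in vehicle villi (1.83 ± 0.21, adjusted p = 0.000263). Eps8l2, a relative of the microvillus actin regulator Eps8, stood at 246 to 373 FPKM (median 328) in vitamin D villi and 214 to 250.2 FPKM (median 233) in vehicle villi. Its lowest vitamin D library reached into the vehicle range (0.46 ± 0.09, adjusted p = 0.014). Tubb2a, a beta tubulin, fell, at 7.86 to 14.1 FPKM (median 11.6) in vitamin D villi and 12.2 to 24.5 FPKM (median 22.7) in vehicle villi (-0.86 ± 0.17, adjusted p = 0.0136), with 5 of 7 vitamin D libraries below the vehicle range and an adjusted p of 0.058 with the block. Ank3, ankyrin-G, which ties membrane proteins to the spectrin skeleton, was picked once its values were known and stood at 30.8 to 61.2 FPKM (median 45.6) in vitamin D villi and 10.1 to 24.1 FPKM (median 15.8) in vehicle villi (1.46 ± 0.22, adjusted p = 0.0016). Myo19, a myosin of mitochondria, stood at 12.6 to 23.2 FPKM (median 17.6) in vitamin D villi and 5.36 to 6.78 FPKM (median 6.48) in vehicle villi (1.46 ± 0.13, adjusted p = 2.91e-05). Both had every vitamin D library above the vehicle range.

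Of 28 small GTPase regulators tested, the genes named Arhgap or Arhgef with a number, 4 rose and 0 fell (14.3% called, against 2.47% of all genes). In 22 of the 28 the fold change was above 0, and the median was 0.12. All 4 are GTPase-activating proteins, which switch small GTPases off. Arhgap32 stood at 26.4 to 39.2 FPKM (median 35.7) in vitamin D villi and 9.58 to 19.7 FPKM (median 18.4) in vehicle villi (1.09 ± 0.16, adjusted p = 0.00151). Arhgap12 stood at 24.0 to 34.5 FPKM (median 26.4) in vitamin D villi and 15.1 to 19.7 FPKM (median 16.7) in vehicle villi (0.71 ± 0.11, adjusted p = 0.00194). The rises of Arhgap42 and Arhgap18 were smaller (0.55 ± 0.08, adjusted p = 0.0017 for Arhgap42 and 0.47 ± 0.08, adjusted p = 0.00708 for Arhgap18). In none of the 4 did the groups overlap. Rhov, an atypical small GTPase, stood at 3.41 to 8.31 FPKM (median 5.43) in vitamin D villi and 0.537 to 1.97 FPKM (median 1.22) in vehicle villi (1.76 ± 0.21, adjusted p = 0.000367).

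Of 47 genes with symbols beginning Rab and a number, many of them GTPases of vesicle traffic, 1 rose and 1 fell (4.26% called, against 2.47% of all genes), with a median of -0.01. The fallen one was Rab4a, a GTPase of endosomal recycling (-0.48 ± 0.12, adjusted p = 0.0426), whose adjusted p was 0.0777 with the replicate block and up to 0.0996 in the 9 of 13 fits without 1 library that lost the call. The risen one was Rab11fip3. Further called genes act in traffic or on membrane phosphoinositides. Arfgef2, an exchange factor that activates Arf GTPases at the Golgi and endosomes, stood at 19.8 to 24.8 FPKM (median 22.1) in vitamin D villi and 8.84 to 14.1 FPKM (median 13.1) in vehicle villi (0.82 ± 0.11, adjusted p = 0.000551), and its relative Arfgef1 stood at 39.4 to 56.5 FPKM (median 48.9) and 28.3 to 39.1 FPKM (median 35.9) in the same order of groups (0.51 ± 0.11, adjusted p = 0.017). Gga3, a clathrin adaptor recruited by Arf proteins, stood at 8.81 to 11.6 FPKM (median 10.2) in vitamin D villi and 5.41 to 6.26 FPKM (median 6.01) in vehicle villi. These 3 genes had no overlap between groups (Gga3 0.71 ± 0.08, adjusted p = 0.000195). Rab11fip3, an effector of Rab11 in recycling endosomes, stood at 79.4 to 115 FPKM (median 102) in vitamin D villi and 43.6 to 65.1 FPKM (median 59.0) in vehicle villi (0.81 ± 0.12, adjusted p = 0.00203). Pip5k1b, a kinase that makes phosphatidylinositol 4,5-bisphosphate, stood at 43.9 to 60.7 FPKM (median 50.5) in vitamin D villi and 33.8 to 37.1 FPKM (median 35.6) in vehicle villi (0.53 ± 0.08, adjusted p = 0.00168). Inppl1, a phosphatase acting on phosphoinositides, stood at 30.9 to 40.0 FPKM (median 32.3) in vitamin D villi and 21.4 to 28.1 FPKM (median 24.7) in vehicle villi (0.44 ± 0.09, adjusted p = 0.0136). In all 3 the vitamin D libraries were above the vehicle range. Arl4d, an Arf-like GTPase, fell, at 5.57 to 9.34 FPKM (median 6.67) in vitamin D villi and 9.44 to 19.4 FPKM (median 14.1) in vehicle villi (-0.87 ± 0.17, adjusted p = 0.0145). Arfgef1, Arfgef2 and Pip5k1b were chosen after their values were seen.

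Among signalling genes, the smallest p over all 9706 genes belonged to a receptor phosphatase. Ptprj, a receptor tyrosine phosphatase that opposes growth factor receptors, stood at 16.0 to 27.7 FPKM (median 21.9) in vitamin D villi and 4.60 to 6.23 FPKM (median 5.94) in vehicle villi. The groups were far apart, with no vehicle library near the lowest vitamin D library (1.82 ± 0.12, adjusted p = 7.07e-06). It was the 1 called gene of 30 kinases, phosphatases and MAPK regulators (3.33%, near the 2.47% of all genes). With the replicate block 2 of the 30 rose. Lpar1, a receptor for lysophosphatidic acid, stood at 31.2 to 37.8 FPKM (median 32.2) in vitamin D villi and 14.4 to 21.9 FPKM (median 17.8) in vehicle villi (0.85 ± 0.10, adjusted p = 0.000263). Neo1, the netrin and repulsive guidance molecule receptor neogenin, stood at 15.9 to 20.3 FPKM (median 19.6) in vitamin D villi and 7.20 to 11.9 FPKM (median 9.82) in vehicle villi (0.94 ± 0.11, adjusted p = 0.000263). Rasa2, a GTPase-activating protein of Ras, was picked once its values were known and stood at 12.7 to 16.7 FPKM (median 13.7) in vitamin D villi and 8.10 to 9.79 FPKM (median 9.14) in vehicle villi (0.59 ± 0.08, adjusted p = 0.000551). None of the 4 had any overlap.

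In the list of WNT, Notch, BMP, Hippo and EGF signalling, 1 of 30 genes rose and 1 fell (6.67% called, against 2.47% of all genes), with a median of 0.05. With the replicate block 2 rose and 1 fell. Smad3, which carries TGF-beta and activin signals to the nucleus, stood at 9.26 to 11.3 FPKM (median 10.98) in vitamin D villi and 6.13 to 9.65 FPKM (median 7.94) in vehicle villi (0.41 ± 0.10, adjusted p = 0.0377). The call of Smad3 was lost without any 1 of 11 of the 13 libraries, with an adjusted p of up to 0.0931 (without vehicle replicate 6). Id2, an inhibitor of basic helix-loop-helix factors that is a known BMP target, fell, at 29.1 to 46.8 FPKM (median 43.5) in vitamin D villi and 52.7 to 73.0 FPKM (median 69.1) in vehicle villi. Its groups did not overlap (-0.66 ± 0.11, adjusted p = 0.00595). Chosen after their values were seen were 5 further risen genes. Acvr1, a type I receptor of BMPs and activins, stood at 6.75 to 12.5 FPKM (median 9.61) in vitamin D villi and 2.08 to 5.81 FPKM (median 4.71) in vehicle villi (1.04 ± 0.20, adjusted p = 0.0139). Dvl1, which relays WNT signals from Frizzled receptors, stood at 31.2 to 43.8 FPKM (median 37.6) in vitamin D villi and 21.9 to 28.1 FPKM (median 26.4) in vehicle villi (0.51 ± 0.09, adjusted p = 0.00898). Bcl9l, a coactivator of beta-catenin, stood at 11.2 to 24.9 FPKM (median 16.2) in vitamin D villi and 4.26 to 9.01 FPKM (median 6.80) in vehicle villi (1.26 ± 0.21, adjusted p = 0.00372). Tsku, a secreted protein that modulates BMP and WNT signals, stood at 57.1 to 95.2 FPKM (median 82.8) in vitamin D villi and 21.0 to 46.5 FPKM (median 34.5) in vehicle villi (1.26 ± 0.20, adjusted p = 0.00271). Nfatc3, a transcription factor activated by calcium through calcineurin, stood at 18.7 to 26.5 FPKM (median 22.2) in vitamin D villi and 10.0 to 17.2 FPKM (median 15.4) in vehicle villi (0.66 ± 0.13, adjusted p = 0.0122). In each of these 5 all vitamin D libraries lay above all vehicle libraries.

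Another 3 genes, of sphingosine-1-phosphate, also chosen after their values were seen, went in different directions. Sphk1, the kinase that makes this lipid signal, fell, at 4.26 to 9.02 FPKM (median 5.79) in vitamin D villi and 8.18 to 15.1 FPKM (median 11.7) in vehicle villi (-0.83 ± 0.19, adjusted p = 0.0295). Sgpp2, a phosphatase that removes it, rose, at 42.6 to 62.3 FPKM (median 50.6) in vitamin D villi and 34.3 to 42.8 FPKM (median 37.7) in vehicle villi (0.41 ± 0.10, adjusted p = 0.0388). Spns2, which exports it from the cell, rose, at 18.0 to 43.0 FPKM (median 23.3) in vitamin D villi and 5.43 to 18.4 FPKM (median 12.1) in vehicle villi (1.12 ± 0.26, adjusted p = 0.0339). The ranges of all 3 overlapped. Each call was lost when 1 library was left out: for Sphk1 in 9 of 13 cases (adjusted p up to 0.0707, without vehicle replicate 5), for Sgpp2 in 10 (up to 0.0967, without vehicle replicate 6) and for Spns2 in 8 (up to 0.0843, without vehicle replicate 6). With the replicate block the 3 genes passed (adjusted p = 0.0194, 0.0199 and 0.0103 in the order Sphk1, Sgpp2, Spns2).

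Of 26 intestinal transcription factors 1 was called (3.85%, against 2.47% of all genes). It was Maf, a basic leucine zipper factor, at 144 to 209 FPKM (median 173) in vitamin D villi and 91.6 to 137 FPKM (median 105) in vehicle villi, without overlap (0.67 ± 0.11, adjusted p = 0.00309). Brpf3, a scaffold of histone acetyltransferase complexes, stood at 39.1 to 49.2 FPKM (median 41.5) in vitamin D villi and 22.3 to 26.6 FPKM (median 24.1) in vehicle villi. Top2b, the DNA topoisomerase of non-dividing cells, stood at 19.3 to 24.8 FPKM (median 21.5) in vitamin D villi and 9.72 to 12.4 FPKM (median 10.97) in vehicle villi. Both changes were under 1 log2 unit and among the smallest p of the comparison (0.82 ± 0.07, adjusted p = 3.43e-05 for Brpf3 and 0.92 ± 0.08, adjusted p = 3.43e-05 for Top2b). Zhx2, a zinc finger and homeobox factor, stood at 13.1 to 18.6 FPKM (median 14.8) in vitamin D villi and 7.88 to 9.49 FPKM (median 8.70) in vehicle villi (0.77 ± 0.09, adjusted p = 0.000268). Zfp961, a zinc finger gene, was 1 of 4 risen among 193 with symbols beginning Zfp (2.07%, under the share of all genes) and stood at 16.6 to 22.4 FPKM (median 19.1) in vitamin D villi and 9.06 to 11.04 FPKM (median 10.4) in vehicle villi (0.86 ± 0.09, adjusted p = 0.000154).

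Suz12, a core subunit of Polycomb repressive complex 2, stood at 22.9 to 33.0 FPKM (median 24.6) in vitamin D villi and 12.8 to 17.0 FPKM (median 15.2) in vehicle villi (0.81 ± 0.11, adjusted p = 0.000735). Rybp, a subunit of a Polycomb repressive complex 1 variant, stood at 40.4 to 119 FPKM (median 65.5) in vitamin D villi and 17.2 to 32.2 FPKM (median 20.1) in vehicle villi (1.53 ± 0.26, adjusted p = 0.0045). Suz12 and Rybp were chosen after their values were seen, and neither had any overlap. Hopx, a homeodomain-only protein used as a marker of a reserve stem cell state and also expressed in differentiated epithelium, was the 1 called gene of 9 stem cell markers tested (11.1%, against 2.47% of all genes). It stood at 71.4 to 145 FPKM (median 104) in vitamin D villi and 37.6 to 61.1 FPKM (median 48.7) in vehicle villi (1.03 ± 0.17, adjusted p = 0.00431). The other 12 stem cell markers of the table summed to 41.6 to 62.1 FPKM (median 58.2) in vitamin D villi and 36.8 to 94.3 FPKM (median 50.2) in vehicle villi, and the part of other cells in the change of Hopx was not tested. Srpk1, a kinase of splicing factors, changed little but without overlap, at 30.2 to 40.0 FPKM (median 33.1) in vitamin D villi and 20.9 to 27.4 FPKM (median 25.0) in vehicle villi (0.48 ± 0.08, adjusted p = 0.00513).

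Genes acting on glycans and at the cell surface included Pgap1, which remodels glycosylphosphatidylinositol anchors, at 5.31 to 9.31 FPKM (median 7.62) in vitamin D villi and 1.81 to 3.96 FPKM (median 2.19) in vehicle villi (1.41 ± 0.17, adjusted p = 0.000367). Gnpda1, which feeds glucosamine 6-phosphate back into glycolysis, stood at 75.5 to 106 FPKM (median 97.5) in vitamin D villi and 41.5 to 62.1 FPKM (median 51.9) in vehicle villi (0.88 ± 0.10, adjusted p = 0.000364). Mgat4a, a branching enzyme of N-glycans, stood at 30.5 to 63.4 FPKM (median 50.9) in vitamin D villi and 9.15 to 31.2 FPKM (median 24.0) in vehicle villi. The ranges of Mgat4a overlapped slightly (1.27 ± 0.26, adjusted p = 0.0154), while those of Pgap1 and Gnpda1 did not. Sdc1, the heparan sulfate proteoglycan syndecan-1, and Spon2, a secreted matrix protein, were the 2 risen genes of 18 of matrix and adhesion (11.1%, against 2.47% of all genes). With the replicate block 2 rose and 1 fell in that list. Sdc1 stood at 20.0 to 30.8 FPKM (median 23.7) in vitamin D villi and 10.4 to 20.3 FPKM (median 13.7) in vehicle villi (0.77 ± 0.15, adjusted p = 0.0136). Spon2 stood at 2.06 to 11.1 FPKM (median 3.89) in vitamin D villi and under 0.2 FPKM in every vehicle library (3.08 ± 0.32, adjusted p = 0.000151). Since its vehicle values lie under the constant of 0.5 FPKM added before the logarithm, 3.08 understates the change, and the authors' deposited table gives 5.78 for it. Spint1, an inhibitor of epithelial membrane serine proteases, rose by less than 0.5 log2 units, at 259 to 376 FPKM (median 295) in vitamin D villi and 213 to 229 FPKM (median 219.7) in vehicle villi (0.45 ± 0.09, adjusted p = 0.0125), with all vitamin D libraries above a narrow vehicle range. Gnpda1 and Mgat4a were chosen after their values were seen.

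The fallen genes named here include receptors, enzymes, membrane proteins and transcription factors. Of the 29 in all, 8 kept an adjusted p under 0.05 in all 13 fits that left out 1 library and 21 with the replicate block, against 148 and 189 of the 211 risen genes. Within the plain-named libraries 3 of the 29 and 87 of the 211 passed. The count of fallen genes was 15 without vitamin D replicate 2 or without vehicle replicate 1, and 17 to 19 without any 1 of vitamin D replicates 1, 3 and 7 and vehicle replicates 2 and 6. Ifngr1, the ligand-binding chain of the interferon gamma receptor, had the smallest p of the fallen genes, at 36.6 to 49.0 FPKM (median 45.1) in vitamin D villi and 56.1 to 78.5 FPKM (median 68.5) in vehicle villi. Every vitamin D library lay below every vehicle library (-0.64 ± 0.09, adjusted p = 0.0011). Tm4sf4, a four-span membrane protein of the intestine, stood at 42.1 to 52.5 FPKM (median 48.3) in vitamin D villi and 54.5 to 106 FPKM (median 77.7) in vehicle villi (-0.72 ± 0.12, adjusted p = 0.0042). Ovol2, a zinc finger repressor that maintains epithelial identity, stood at 6.55 to 11.8 FPKM (median 7.46) in vitamin D villi and 11.1 to 16.5 FPKM (median 13.7) in vehicle villi, with 6 of 7 vitamin D libraries below the vehicle range (-0.73 ± 0.13, adjusted p = 0.00711). Sephs2, which makes selenophosphate for selenoproteins, stood at 92.9 to 123 FPKM (median 99.3) in vitamin D villi and 118 to 152 FPKM (median 138) in vehicle villi (-0.44 ± 0.08, adjusted p = 0.0112). Lrrc42, a gene of little known function, stood at 4.42 to 6.53 FPKM (median 5.96) in vitamin D villi and 6.78 to 9.85 FPKM (median 8.80) in vehicle villi (-0.57 ± 0.11, adjusted p = 0.0109). These 5 genes passed in every fit that left out 1 library.

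Bid, a death-promoting member of the BCL2 family, stood at 1.37 to 3.59 FPKM (median 3.08) in vitamin D villi and 3.73 to 7.47 FPKM (median 5.34) in vehicle villi. The groups did not overlap (-0.89 ± 0.19, adjusted p = 0.0201), and the adjusted p was 0.0514 without vehicle replicate 1. Sox13, a transcription factor of the SOX family, stood at 12.8 to 18.6 FPKM (median 13.6) in vitamin D villi and 17.8 to 23.3 FPKM (median 19.7) in vehicle villi. It fell (-0.45 ± 0.10, adjusted p = 0.0234), a call lost with the block (adjusted p = 0.066) and without any 1 of vitamin D replicates 1, 2 and 3 and vehicle replicates 1 and 2 (adjusted p up to 0.0586, without vehicle replicate 1). Nusap1, a spindle protein of dividing cells, was the 1 called gene of 28 of cell cycle and DNA replication (3.57%, near the 2.47% of all genes). It fell, at 0.656 to 4.95 FPKM (median 2.20) in vitamin D villi and 4.22 to 12.6 FPKM (median 6.57) in vehicle villi (-1.48 ± 0.33, adjusted p = 0.0285). Its call was lost without any 1 of 7 of the 13 libraries (adjusted p up to 0.0671, without vehicle replicate 1). With the replicate block 2 genes of the cell cycle list fell. In that list 25 of 28 members had a negative fold change, with a median of -0.21, while the summed Paneth cell markers reached 3410 FPKM in 1 vehicle library; the part of crypt cells in these values was not tested.

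**Figure D4:**
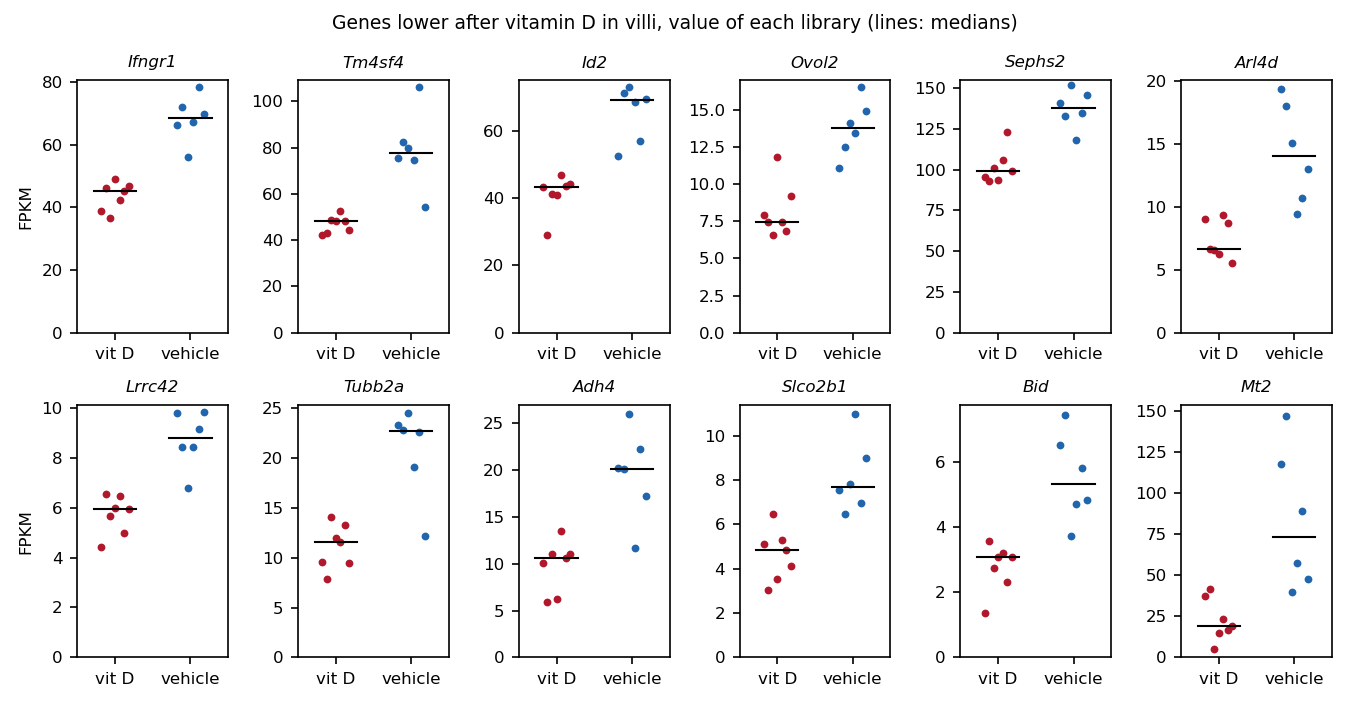
FPKM of 12 fallen genes in each villus library, with the 7 vitamin D libraries (red) left of the 6 vehicle libraries (blue) and a black line at each group's median; every y axis starts at 0. Ifngr1, Tm4sf4, Id2, Arl4d, Lrrc42, Slco2b1 and Bid show no overlap, and in the other panels at least 1 library of a group reaches into the range of the other.

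Of 34 role lists, 24 had at least 1 called member and 10 had none, or 6 with the replicate block. Of their 742 genes tested 39 rose and 9 fell (6.47%, against 2.47% of all genes), a share of lists chosen with earlier results known. Among those not yet described, 1 gene rose in each of the lists of sodium, chloride, bicarbonate and potassium transport (23 tested), prostaglandin enzymes (13 tested), sugar phosphates and glycolysis (26 tested) and MHC molecules (19 tested), and 2 rose and 1 fell among 26 apoptosis and p53 target genes. The risen genes were Slc9a2, a sodium-proton exchanger (0.39 ± 0.09, adjusted p = 0.0401), Ephx1, Slc37a2, and H2-Q1, an MHC class I gene whose reads may be shared with near-identical copies (0.48 ± 0.11, adjusted p = 0.0358). The apoptosis list had Sesn2, a stress-induced sestrin (0.71 ± 0.17, adjusted p = 0.0483), and Trp53inp1, a nuclear p53-induced protein (1.26 ± 0.31, adjusted p = 0.0496), higher and Bid lower. The calls of Slc9a2, H2-Q1, Sesn2 and Trp53inp1 were each lost in 9 or 10 of the 13 fits that left out 1 library, with an adjusted p of up to 0.108, and passed with the replicate block, under which 3 rose and 1 fell in the transport list and 3 rose in the MHC list. Under that block 2 rose and 2 fell in the apoptosis list, and 1 rose and 1 fell in the prostaglandin list. The 10 were tight and adherens junctions, P450 enzymes, the bile acid and FGF15 axis, respiratory chain subunits, chaperones, immediate early and heat shock genes, glucocorticoid targets, the circadian clock, mucosal defence and interferon-stimulated genes. At the share of all genes, 2.47%, a list of 4 to 30 tested genes would hold less than 1 call, so that their lack of calls is not a result about these genes. None of 77 cytosolic ribosomal proteins was called although all 77 had a negative fold change, with a median of -0.27. Their summed FPKM was 14200 to 16500 in vitamin D villi and 11900 to 28200 in vehicle villi, so that the vehicle libraries spanned the vitamin D range on both sides. Rplp0, a protein of the large subunit stalk, picked once its values were known, stood at 207 to 305 FPKM (median 257) in vitamin D villi and 168 to 472 FPKM (median 304) in vehicle villi (-0.26 ± 0.22, adjusted p = 0.714). Of 30 respiratory chain subunits 28 had a negative fold change, with a median of -0.08 and 0 at an unadjusted p under 0.05. Pcna, the replication clamp, also picked once its values were known, stood at 36.2 to 65.3 FPKM (median 43.8) in vitamin D villi and 54.3 to 66.5 FPKM (median 59.0) in vehicle villi and did not pass (-0.36 ± 0.12, adjusted p = 0.199), but did without vitamin D replicate 6 (adjusted p = 0.0349) and with the block from the column names (adjusted p = 0.0476). Nr1d1, a repressor of the circadian clock, stood at 109 to 155 FPKM (median 129) in vitamin D villi and 59.2 to 119 FPKM (median 96.5) in vehicle villi. It did not pass (0.49 ± 0.15, adjusted p = 0.125), but did with the replicate block (adjusted p = 0.024).

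Markers of cell types gave 1 call in 12 lists, that of Hopx, and with the replicate block also that of Alpi among the enterocyte markers (adjusted p = 0.0415). None of 18 absorptive enterocyte, 14 goblet, 14 enteroendocrine, 10 Paneth or 7 tuft cell markers was called without the block. At the share of all genes, 2.47%, such lists would hold less than 1 call, so this is not a result about these cells. Of the Paneth markers 9 had a negative fold change (median -0.353), as had 9 of 10 villus tip markers (median -0.225, 2 lower at an unadjusted limma p under 0.05). Of the enterocyte markers 12 had a positive one (median 0.0576). Shifts in cell make-up were not tested. Apoa1, an abundant apolipoprotein among the enterocyte markers, stood at 11263 to 16592 FPKM (median 13833) in vitamin D villi and 12828 to 17792 FPKM (median 16492) in vehicle villi (-0.17 ± 0.14, adjusted p = 0.711). Summed goblet cell markers stood at 11700 to 15800 FPKM in vitamin D villi and 11300 to 17000 FPKM in vehicle villi, and enteroendocrine markers at 586 to 981 FPKM in vitamin D villi and 632 to 937 FPKM in vehicle villi. Of the 240 called genes 68 belonged to a role list, a marker list or a symbol family, and 172 belonged to none.

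The villus response was set against that of small intestinal crypts and of colon, each with its own vehicle libraries. Of the 211 genes that rose in villi, 205 were also tested in crypts, where 61 rose, against 1.13% of all genes tested there. These 61 were 62.2% of the 98 genes that rose in crypts and were tested in villi. In colon 43 of 207 rose, against 0.763% of all genes, and none of the 211 was called lower in either tissue. The median log2 fold change of the villus risen genes was 0.43 in crypts and 0.27 in colon. The genes were chosen by their rise in villi, and the part of any mice shared between tissues in these values was not tested. The crypt libraries also held villus RNA. Their absorptive enterocyte markers summed to 12600 to 42900 FPKM (median 19400) after vitamin D and 11400 to 71600 FPKM (median 30800) after vehicle. The part of villus cells in the crypt fold changes, and in their difference from villi, was not tested. Of the 29 fallen genes, all tested in crypts, 5 fell there, against 0.335% of all genes tested, and of the 27 tested in colon 1 fell, against 0.0607%.

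Whether the fold changes differ between tissues was tested as a difference of differences. Against crypts 2 of 9497 genes passed (0.0211%), both with the larger rise in villi, with 670 at an unadjusted p under 0.05. Ppl had a log2 fold change of 0.66 ± 0.13 in villi and -0.33 ± 0.10 in crypts (difference 1.00 ± 0.15, adjusted p = 0.011). Zfp961 had 0.86 ± 0.09 in villi and 0.23 ± 0.07 in crypts (difference 0.62 ± 0.11, adjusted p = 0.0433). Deviations of same-numbered crypt libraries had correlations of 0.119 to 0.545, which does not settle whether the numbers pair them. When the numbers entered as a block within each tissue 0 genes were called by limma, with 1381 at an unadjusted p under 0.05 and an adjusted p of 0.0997 for both genes. The call of Ppl held in all 13 fits that left out 1 villus library, and that of Zfp961 was lost in 7 of them (without any 1 of vitamin D replicates 2 to 5 and vehicle replicates 1, 2 and 5), with an adjusted p of up to 0.122 (without vehicle replicate 1). Within the plain-named libraries no gene was called by limma, with 188 at an unadjusted p under 0.05, and the adjusted p was 0.784 for Ppl and 0.451 for Zfp961. Against colon 35 of 9425 genes passed (0.371%), 29 with a more positive change in villi and 6 with a more negative one, with 723 at an unadjusted p under 0.05. All 29 were among the 211 that rose in villi. Without vehicle replicate 6 the count was 23, and within the plain-named libraries it was 15.

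The genes that separated villi from colon came from several of the groups above. Top2b changed by 0.92 ± 0.08 on the log2 scale in villi and 0.02 ± 0.09 in colon (difference 0.90 ± 0.12, adjusted p = 0.000281), and Brpf3 by 0.82 ± 0.07 in villi and 0.18 ± 0.09 in colon (difference 0.64 ± 0.11, adjusted p = 0.00664). The traffic genes Gga3, Arfgef2 and Pip5k1b had differences of 0.77 ± 0.13, adjusted p = 0.00617 for Gga3, 0.91 ± 0.16, adjusted p = 0.00774 for Arfgef2 and 0.62 ± 0.12, adjusted p = 0.00921 for Pip5k1b. Those of Pgap1 (1.54 ± 0.26, adjusted p = 0.00617), Abcb10 (0.89 ± 0.16, adjusted p = 0.00866), Gnpda1 (0.94 ± 0.18, adjusted p = 0.0109) and Neo1 (0.87 ± 0.18, adjusted p = 0.0194) were of like size or larger. Tsku changed by 1.26 ± 0.20 in villi and -0.31 ± 0.19 in colon (difference 1.57 ± 0.29, adjusted p = 0.00866), and Rybp by 1.53 ± 0.26 in villi and 0.07 ± 0.12 in colon (difference 1.47 ± 0.30, adjusted p = 0.0194). The glutathione transferases had wide differences, Gstm1 2.26 ± 0.42, adjusted p = 0.00921 and Gstm3 2.61 ± 0.57, adjusted p = 0.0373. Ptprj rose in both tissues but by more in villi (1.82 ± 0.12 in villi, 0.86 ± 0.16 in colon, difference 0.96 ± 0.20, adjusted p = 0.0307). Oxr1 differed by 1.29 ± 0.24, adjusted p = 0.00921. Nearer to the threshold were Arhgap42 (0.71 ± 0.15, adjusted p = 0.0307), Cnnm2 (1.09 ± 0.24, adjusted p = 0.0334), Sdc1 (0.81 ± 0.18, adjusted p = 0.0394), Spns2 (1.55 ± 0.34, adjusted p = 0.0394) and Slc30a1 (1.05 ± 0.24, adjusted p = 0.0466). Each of these 5, like Ptprj and Gstm3, lost its call when 1 villus library was left out: Arhgap42 and Ptprj in 4 of 13 cases, Cnnm2, Sdc1 and Spns2 in 7, and Gstm3 and Slc30a1 in 9, with an adjusted p of up to 0.0897 (Slc30a1, without vitamin D replicate 5). Ppl and Zfp961 differed from colon too (Ppl 1.09 ± 0.20, adjusted p = 0.00921 and Zfp961 0.79 ± 0.12, adjusted p = 0.0019). Of the genes above in this paragraph, Top2b, Gga3, Arfgef2, Pgap1, Gstm1, Gstm3 and Zfp961 also passed within the plain-named libraries. The others did not, with a limma adjusted p of 0.0878 (Ptprj) to 0.329 (Spns2) there. In the other direction, Fhl2, a LIM protein that acts as a transcriptional cofactor, stood at 9.65 to 15.2 FPKM (median 12.7) in vitamin D villi and 12.7 to 21.9 FPKM (median 17.5) in vehicle villi without passing there (-0.50 ± 0.14, adjusted p = 0.0794, or 0.0548 with the replicate block from the titles), although it passed without vehicle replicate 5 (adjusted p = 0.0285), with the block from the column names (adjusted p = 0.0208) and, per the authors' deposited table, at 0.0203, while it rose in colon by 1.14 ± 0.16 (difference -1.64 ± 0.22, adjusted p = 0.000281).

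**Figure D5:**
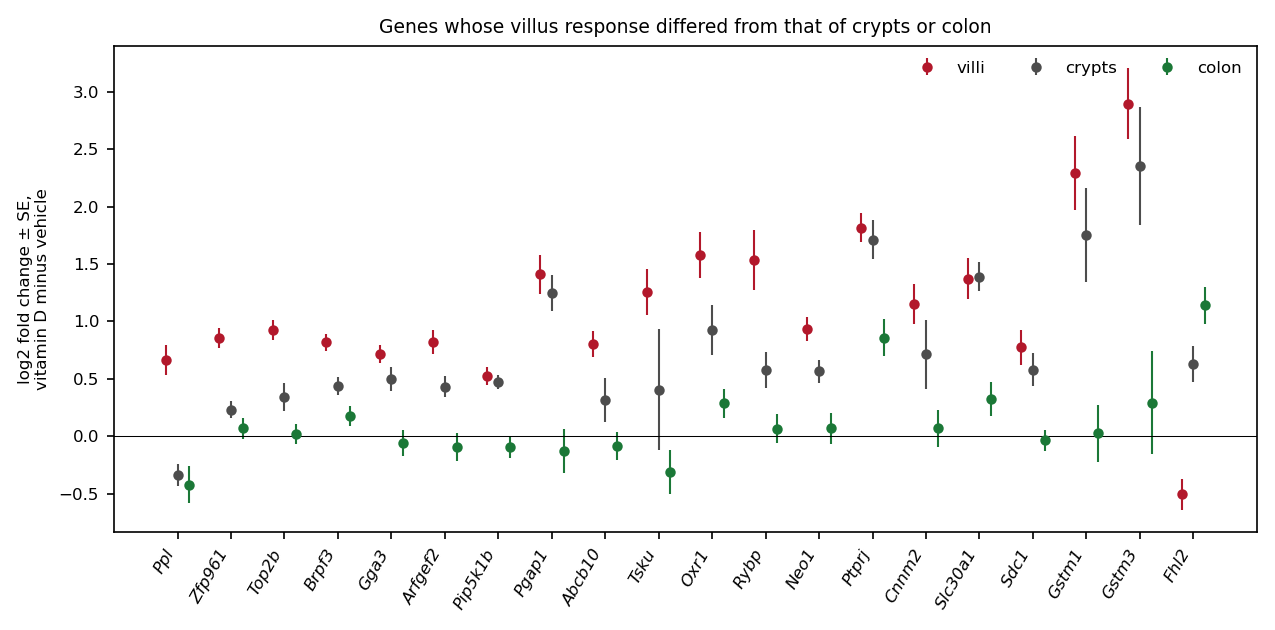
Log2 fold change (vitamin D minus vehicle) with its standard error for 20 genes in villi (red), crypts (grey) and colon (green), 1 gene per position on the x axis. Ppl and Zfp961 differed between villi and crypts without the replicate block; all 20 differed between villi and colon, with Fhl2 the 1 shown whose fold change was higher in colon.

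Promoters were read for the risen genes, since the vitamin D receptor with its retinoid X partner is known to bind 2 copies of a half-site spaced by 3 bases. Windows of 300 bases, 250 before and 50 after the gene start (RefSeq, GRCm38.p6), were found for 161 of the 211 risen and 22 of the 29 fallen genes. They were searched on both strands for AGGTCANNNAGGTCA, with mismatches counted over the 12 fixed letters. With up to 2 mismatches 5 of 161 risen genes (3.11%) and 0 of 22 fallen genes had a match, against 2.37% of 7733 tested genes with a window and 3.06% of all 32851 windows. With up to 3 mismatches the shares were 20.5% of risen genes, 22.7% of fallen genes and 20.9% of tested genes. The share of risen genes was thus near the background at both settings. The 5 genes were Gm8909, Krt7, Ptprj, Slc39a8 and Tsku. The windows of the last 4 are printed to show what such a match looks like in its surroundings, in the direction of transcription, with the 15 matched bases in capitals. Krt7 has 1 window, and Ptprj, Slc39a8 and Tsku have 2 each, of which the one with the fewest mismatches is printed. Distances given below are from the gene start of the printed window.

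Krt7 (chr15:101412153-101412452, plus strand): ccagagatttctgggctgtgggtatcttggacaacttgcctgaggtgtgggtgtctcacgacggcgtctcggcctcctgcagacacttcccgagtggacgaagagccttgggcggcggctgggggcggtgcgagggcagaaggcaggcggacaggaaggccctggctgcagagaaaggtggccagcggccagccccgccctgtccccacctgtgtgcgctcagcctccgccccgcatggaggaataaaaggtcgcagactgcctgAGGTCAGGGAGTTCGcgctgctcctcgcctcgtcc
Ptprj (chr2:90479125-90479424, minus strand): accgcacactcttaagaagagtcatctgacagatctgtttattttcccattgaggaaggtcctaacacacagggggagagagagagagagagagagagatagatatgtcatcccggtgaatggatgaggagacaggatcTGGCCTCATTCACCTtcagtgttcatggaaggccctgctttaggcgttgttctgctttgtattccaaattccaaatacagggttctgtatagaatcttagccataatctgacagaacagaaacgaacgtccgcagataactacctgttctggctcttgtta
Slc39a8 (chr3:135825407-135825706, plus strand): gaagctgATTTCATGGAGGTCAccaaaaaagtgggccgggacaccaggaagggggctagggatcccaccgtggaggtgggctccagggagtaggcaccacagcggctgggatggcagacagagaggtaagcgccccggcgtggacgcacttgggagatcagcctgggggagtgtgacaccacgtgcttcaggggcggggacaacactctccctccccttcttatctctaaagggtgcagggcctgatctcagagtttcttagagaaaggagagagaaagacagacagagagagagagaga
Tsku (chr7:98361239-98361538, minus strand): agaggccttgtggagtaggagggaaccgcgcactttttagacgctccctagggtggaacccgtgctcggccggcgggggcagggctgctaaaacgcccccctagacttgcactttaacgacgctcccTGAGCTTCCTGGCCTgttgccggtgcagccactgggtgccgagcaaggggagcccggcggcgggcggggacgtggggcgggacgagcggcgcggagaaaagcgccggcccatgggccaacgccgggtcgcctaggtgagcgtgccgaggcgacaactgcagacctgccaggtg

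The matches of Krt7 and Slc39a8 lie on the strand of the gene, starting 15 bases after the gene start in Krt7 and 243 bases before it in Slc39a8. Those of Ptprj and Tsku lie on the opposite strand and start 111 bases before the gene start in Ptprj and 123 bases before it in Tsku. These are matches of letters in a short window and not measured sites.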

How the data were processed

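RNA-seq values of 38 mouse libraries were used as the authors deposited them, in FPKM, 1 table per tissue, normalised separately. The submitters' processing notes list kallisto 0.45.0, DESeq 1.28.1, DESeq2 and mm9, with no role for each. A table deposited by the authors for villi gives log2 fold changes and their errors, p-values raw and adjusted, and, as scores, a mean level and a test statistic; it served as an alternative and gave the depth of each library. For depth, each gene's FPKM was rescaled so that its mean over the 13 libraries equalled that mean level, and the value of 1 read was sought among low values, of which 89.6% to 92.8% then lay within 0.05 of a whole read. Groups came from the sample labels. The members and lists were chosen with earlier results of these data known.

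Genes at 1 FPKM or above in 6 or more villus libraries were tested with limma 3.58.1 (R 4.3.3; lmFit, eBayes with trend) on log2(FPKM + 0.5), two-sided, with Benjamini-Hochberg adjustment over 9706 genes and a threshold of 0.05. A fold change is on that log2(FPKM + 0.5) scale, which understates the change of low genes, and is given ± its SE; levels are the lowest and highest FPKM with the median. Differences between tissues were limma contrasts of contrasts over genes tested in both. The labels do not match libraries of the same mouse across tissues. Libraries of different tissues were thus treated as independent, and mice shared between tissues, if any, were not modelled. Lists were matched by symbol (994 of 1017 genes) or older symbol (6), with 17 unmatched; the result of 1 of the 34 role lists is not reported here.

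The deviations of same-numbered libraries from their group means had correlations of 0.128, 0.465, 0.241, 0.444, 0.102 and 0.259 for titles 1 to 6. Libraries numbered 2, 4 and 6 matched their own number best in both groups, and those numbered 1, 3 and 5 did not. Replicates 1 to 3 showed the female pattern and 4 and 5 the male pattern in both groups. Replicate 6 was female after vitamin D and male after vehicle. The part of sex in these correlations was not tested, and whether the numbers pair the libraries is not settled. They entered as a block, and this fit stands beside the calls of named genes and most counts of role lists that it changes. The counts of symbol families are given without it. Column names give other pairs for some libraries and were tried as a second block. Genes named were Vdr, Cyp24a1, Trpv6, S100g and Atp2b1 and, per band of fold change, those of smallest p, the most abundant called genes, called members of each list and 2 abundant members of lists with none; those that differed most between tissues by p were added, and others are said to be chosen after their values were seen. Promoter windows came from RefSeq (GRCm38.p6).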

Additional observations from a re-analysis of the deposited data

Results flagged for a closer look

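In 8 of 224 groups of values (112 genes named, each with a vitamin D and a vehicle group) 1 library stood apart from the others by more than Dixon's critical gap, and chance gives about 1 in 20 such groups. Cyp24a1 had 62.2 FPKM in vehicle replicate 6, against at most 1.33 FPKM in the other vehicle libraries. Slc11a2 had 83.4 FPKM in vehicle replicate 4, with the next at 49.7 FPKM. Ppard had 97.8 FPKM in vehicle replicate 5, the lowest of its group. In vehicle replicate 3, Ptprj had 4.60 FPKM and Slc41a2 had 19.5 FPKM, each the lowest of its group. In vitamin D replicate 7, Gstp1 had 858 FPKM and Pkp4 had 15.6 FPKM, each again the lowest. Id2 had 29.1 FPKM in vitamin D replicate 2, the lowest of its group.

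A further set of genes had log2 fold changes that differed between tissues by limma's test of the difference. Against crypts, the difference (villi minus crypts) was 1.00 for Ppl and 0.62 for Zfp961, neither of them called with the replicate block. Against colon, genes of transport and metals had differences (villi minus colon) of 1.05 for Slc30a1, 1.09 for Cnnm2 and 0.89 for Abcb10. Genes of detoxification and sugar metabolism had differences of 2.26 for Gstm1, 2.61 for Gstm3, 1.29 for Oxr1 and 0.94 for Gnpda1. Genes of traffic and GTPase control had 0.77 for Gga3, 0.91 for Arfgef2, 0.62 for Pip5k1b and 0.71 for Arhgap42. Surface and signalling genes had 0.96 for Ptprj, 0.87 for Neo1, 1.57 for Tsku, 1.55 for Spns2, 1.54 for Pgap1, 0.81 for Sdc1 and 1.09 for Ppl. Nuclear genes had 0.90 for Top2b, 0.64 for Brpf3, 1.47 for Rybp and 0.79 for Zfp961. The stress gene Sesn2 had 1.17. Fhl2 was the 1 named gene with a negative difference, -1.64.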

How the results depend on the processing

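The count of 240 called genes was within 1.5 times of its value under 24 of 26 alternatives and became 97 within the plain-named libraries (93 higher, 4 lower), of which 90 were among the 240; the authors' deposited table calls 436 (350 higher, 86 lower) of 12103, including 239 of the 240. The count of falls was 53 with the replicate block from the titles and 77 with that from the column names. It was 47 with the split into plain-named and other libraries as a covariate. Leaving out 1 library gave 176 to 223 calls, with 158 to 204 higher and 15 to 28 lower. The difference from crypts gave 18 calls with no filter on low values (3 higher and 15 lower in villi), 1 at a mean of 5 FPKM or more, 0 within the plain-named libraries by limma (188 at an unadjusted p under 0.05) and 1 to 4 without 1 library. With the replicate block within each tissue, chosen after seeing the data, it gave 0 calls and the difference from colon 76 (59 higher, 17 lower), where correlations of same-numbered colon libraries were 0.0569 to 0.572 and the numbers thus need not pair them. The difference from colon gave 15 calls within the plain-named libraries (8 higher, 7 lower) and 23 to 41 without 1 library. The cause of these shifts was not tested, except that the plain-named fit has 8 of 13 libraries. None of the 2902 recomputed fold changes of the 112 genes named changed sign; 225 lost their call, 51 of them within the plain-named libraries, and 33 gained one. Beyond the genes given with a blocked value, the replicate block from the titles changed no call of a gene named; with the column names, Bid (adjusted p = 0.0543), Slc41a2 (0.0502), Ppl (0.0601), Sox13 (0.0818), Agpat2 (0.0618) and Rab4a (0.0765) lost theirs, while Trpv6, Slc34a2, Cyp2b10, Nr1d1, Cdh17, Fhl2 and Pcna gained one (adjusted p = 0.00215 to 0.0476). Precision is limited by 7 and 6 libraries of 14.2 M to 17.2 M reads and by FPKM values, to which no count model was fitted.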
